A study of Homo sapiens with 5 samples.

Results

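Interferon-stimulated genes are the set of genes that cells switch on after interferon binds its receptors, and 39 of them were followed here across 3 human renal cell carcinoma lines. The genes were chosen by name, from antiviral effectors, interferon regulatory factors and the ubiquitin-like and ADP-ribosylation enzymes that interferon induces, with earlier results of these data known. Of the 39 genes, 38 had a probe set assigned to that gene alone, out of 19775 genes with such a probe set. A total of 31 were bright enough to be tested, among 15024 tested genes. STAT2 had no entry in the probe table used and is not analysed here.

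The study asked how gene expression differs between renal carcinoma cells of increasing metastatic activity. SN12C is an established renal cell carcinoma line, labelled as the parental, non-metastatic line, and was measured on 2 arrays labelled as biological replicates. LM1 carries the label of generation 1 of lung metastasis and was measured on 1 array, and LM2, generation 2, on 2 arrays labelled as biological replicates. The 5 arrays were Affymetrix human expression arrays hybridised with total RNA, and the labels give no treatment, host or interferon exposure for any line.

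In the textbook pathway, type I and type III interferons act through the kinases JAK1 and TYK2 and lead to the complex ISGF3, which holds STAT2 and IRF9 and binds the interferon-stimulated response element, the ISRE. Interferon gamma acts through JAK1 and JAK2 and leads to binding at another element, the gamma-activated site or GAS. Many tumour cells keep a low level of these genes without added interferon, and the proteins act on viral RNA, viral entry and release, protein modification and cell survival.

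The promoter stretches below show matches to the letters of these elements. They cover the genes at least 0.5 log2 units lower in LM2 than in SN12C, and a gene pair that shares 1 match. Sequences are from RefSeq on build GRCh38.p14, run 5' to 3' on the strand given and stop before the annotated start of transcription unless stated. Capitals mark matches to the core ISRE letters GAAANNGAAA, or to TTTCNNTTTC where the match lies on the other strand.

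ISG15, chr1:1013344-1013439, plus strand: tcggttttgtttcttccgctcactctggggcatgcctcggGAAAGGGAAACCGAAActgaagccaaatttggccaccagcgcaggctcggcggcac

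IFI6, chr1:27672236-27672388, minus strand: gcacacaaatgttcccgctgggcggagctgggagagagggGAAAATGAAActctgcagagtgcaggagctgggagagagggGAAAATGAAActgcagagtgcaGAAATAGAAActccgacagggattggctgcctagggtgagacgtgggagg

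BST2, chr19:17405705-17405800, minus strand: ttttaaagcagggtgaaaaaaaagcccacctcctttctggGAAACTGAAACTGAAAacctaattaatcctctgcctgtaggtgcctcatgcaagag

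ISG20, chr15:88638907-88638996, plus strand: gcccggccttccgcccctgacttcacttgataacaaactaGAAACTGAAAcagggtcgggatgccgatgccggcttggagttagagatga

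GBP1, chr1:89065286-89065375, minus strand: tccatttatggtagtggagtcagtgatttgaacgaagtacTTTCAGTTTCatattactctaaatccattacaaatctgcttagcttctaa

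IFIH1, chr2:162318685-162318883, minus strand: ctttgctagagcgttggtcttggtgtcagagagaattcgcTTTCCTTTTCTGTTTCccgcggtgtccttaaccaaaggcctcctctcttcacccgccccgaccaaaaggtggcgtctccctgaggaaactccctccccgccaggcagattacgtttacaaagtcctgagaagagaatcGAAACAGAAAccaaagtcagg

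PARP9 and DTX3L, chr3:122564301-122564341, plus strand: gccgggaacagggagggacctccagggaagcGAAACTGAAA

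IRF1, with the GAS letters TTCNNNGAA in capitals, chr5:132490849-132490937, minus strand: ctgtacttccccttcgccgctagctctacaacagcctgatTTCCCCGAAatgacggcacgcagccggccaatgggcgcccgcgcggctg

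ISG15, BST2 and IFIH1 each carry overlapping matches, and IFI6 carries 3 separate ones. PARP9 and DTX3L lie head to head with 37 bases between their starts, and the match falls inside both promoter windows, where it begins 6 bases before the DTX3L start and runs past it. The window of 300 bases reached from 250 bases before to 50 after each annotated start, and both strands were searched. Of the 30 genes of the set with a window, 21 (70%) held the ISRE letters, against 4.38% of 27305 genes. The GAS letters stood in 10 of the 30 genes (33.3%), against 9.38% of genes, and in 4 genes, BST2, MX1, IFI27 and IFITM1, a GAS match overlapped an ISRE match. A match is a description of the letters in this window and not a bound site. Among the 23 tested genes with a window, the 17 with the ISRE letters had a median LM2 minus SN12C difference of -0.02 log2 units and the others a median of -0.27. Of those 17 genes, 10 were lower in LM2.

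The array values are log2 signals, so a difference of 1 unit is a doubling, and values of different probe sets cannot be ranked against each other as transcript levels. Array medians lay between 6.51 and 6.57, and testing required a log2 signal of 6.03 or more, the 40th percentile over the whole table, on at least 2 arrays. Of 11 renal markers with a probe set 8 passed this filter, among them PAX8 between 9.19 and 9.82, and CUBN, LRP2 and CDH16 did not. Of 6 epithelial markers 4 passed, among them KRT8 between 12.46 and 13.21, while EPCAM, between 4.17 and 4.96, and CDH1, between 4.83 and 5.11, did not. Of 9 leukocyte markers 5 also passed, including CD3E between 6.36 and 7.05, CD14 between 6.19 and 7.16 and ITGAM, at 7.18 on 4 arrays. PTPRC, the pan-leukocyte marker, stayed between 4.99 and 5.36, below the filter, and the 9 markers had mean signals between 6.06 and 6.20 per array. Of 5 lung epithelial markers 4 passed, among them SFTPC between 8.05 and 8.29. So did 4 of 5 endothelial, 4 of 5 fibroblast and 3 of 4 plasmacytoid dendritic cell markers. Passing the filter does not by itself show that a cell type was present. What part leukocyte RNA has in any value was not tested. In bulk RNA, fewer cells of a type and less RNA per cell cannot be told apart.

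The LM1 array stood apart in its control probes. Its beta-actin control read 3.43 log2 units brighter from the 3' probes than from the 5' probes, where the remaining arrays gave 0.07 to 0.47. For GAPDH the same gap was 2.09 on LM1 and -0.07 to 0.14 elsewhere. Many deposited values also recurred exactly between arrays: 39.2% of tested genes shared a value between at least 2 arrays, as did 10 of the 31 interferon-stimulated genes (32.3%). The median gap between the SN12C replicates was 0.22 for the 31 genes and 0.28 for all tested genes, and between the LM2 replicates 0.11 and 0.07. Equal values give a replicate spread of 0, which was true of 4 of the 31 genes in the SN12C pair and 5 in the LM2 pair.

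**Figure D1:**
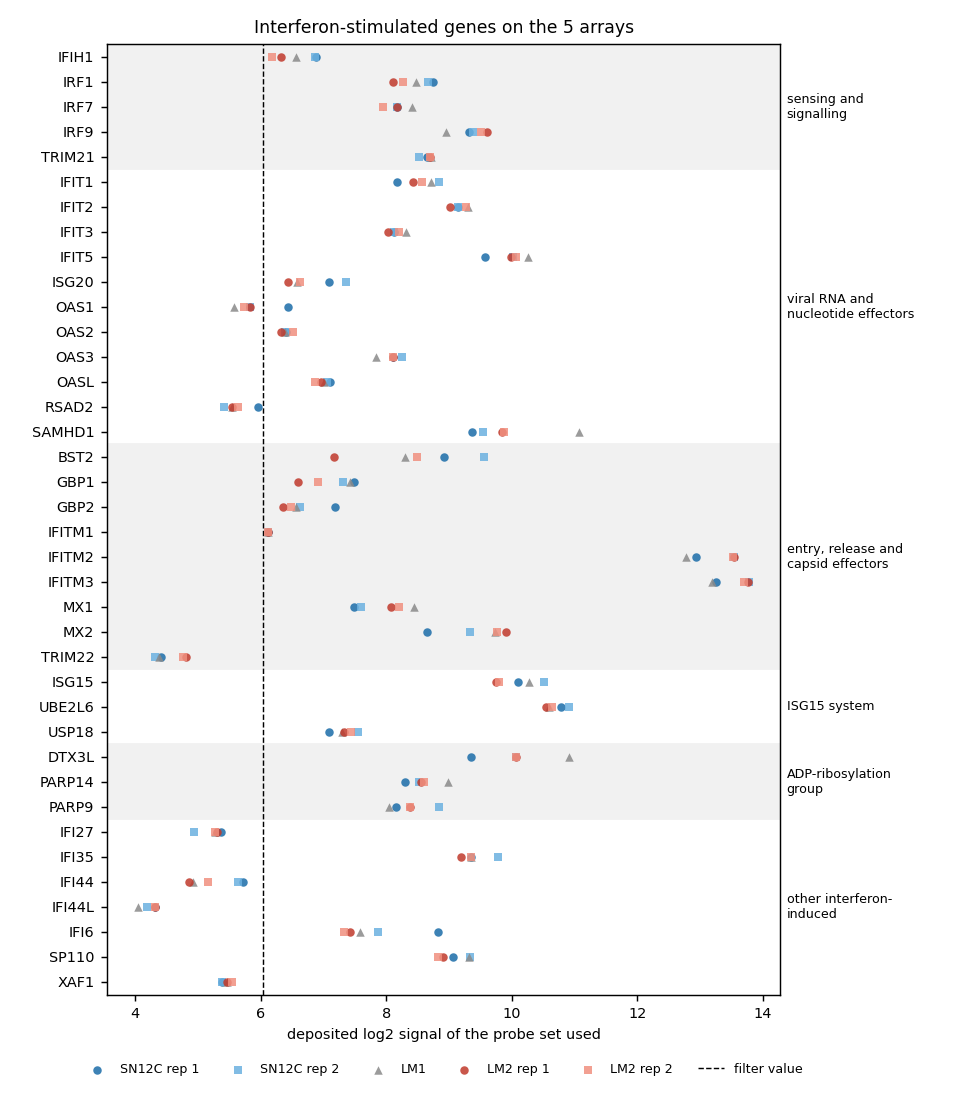
Deposited log2 signal (x axis) of the 38 genes with a probe set on each of the 5 arrays, ordered by role; the dashed line is the filter value of 6.03. Circles and squares are replicates 1 and 2, the grey triangle is the single LM1 array, and 7 genes lie to the left of the line on at least 4 arrays.

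LM2 differed from SN12C in both directions within the set, with the larger differences on the lower side. BST2, IFI6, ISG20, GBP1, IFIH1, ISG15 and IRF1 were each at least 0.5 log2 units lower in LM2, and MX2 and MX1 were at least 0.5 higher. In 22 of the 31 genes the difference was under 0.5. None of the 31 passed the limma test at a Benjamini-Hochberg adjusted p of 0.05, and neither did any of the 15024 genes tested (0.0%). At an unadjusted p under 0.05, limma called 3 genes of the set higher (MX1, MX2 and SAMHD1), against 6.96% of all genes, and 4 lower (IFIH1, IRF1, ISG20 and GBP1), against 4.6%.

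Counted by size, 7 of the 31 genes (22.6%) were at least 0.5 lower, against 4.6% of all tested genes. At least 0.5 higher were 2 (6.45%), against 10.1%. The SN12C replicates were themselves at least 0.5 apart in 9 of the 31 genes and in 3966 of the 15024 tested genes. The LM2 replicates were so in 1 and in 111. Counted by overlap of the arrays, both LM2 values lay below both SN12C values in 11 genes (35.5%), against 14.1% of all genes, and above them in 6 genes (19.4%), against 25.3%. The 11 genes were the 7 above with GBP2, OASL, SP110 and UBE2L6, and the 6 were MX1, MX2, SAMHD1, IRF9, PARP14 and TRIM21. The median of the set was -0.02 log2 units, with 12 genes higher, 18 lower and IFITM1 equal, against 0.03 for all genes. The counts were 15 higher and 16 lower with arrays centred on their median, 8 and 21 without SN12C replicate 1 and 15 and 15 without LM2 replicate 1. With 2 arrays against 2 an exact permutation test cannot go below a two-sided p of 0.333.

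**Figure D2:**
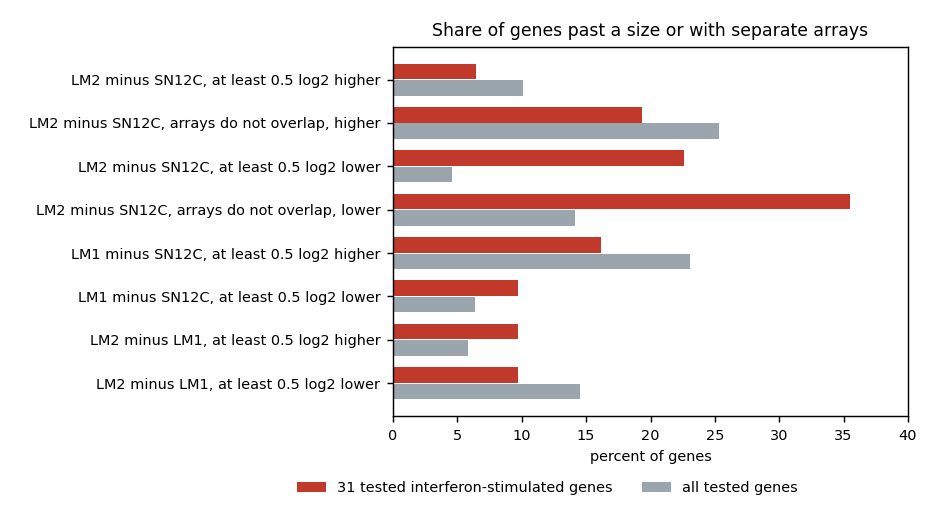
Percent of genes (x axis, from 0) that were at least 0.5 log2 units apart, or whose LM2 and SN12C arrays did not overlap, for the 31 tested interferon-stimulated genes (red) and all 15024 tested genes (grey). The red bar exceeds the grey one most in the 2 rows of lower values in LM2, 22.6% against 4.6% and 35.5% against 14.1%.

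Of 5 tested sensing and signalling genes 2 were higher in LM2 and 3 lower. IFIH1, the cytosolic sensor of long double-stranded RNA also called MDA5, gave 6.88 and 6.87 in SN12C, 6.56 in LM1 and 6.32 and 6.18 in LM2. Both LM2 arrays were below both SN12C arrays and LM1 stood between them. The difference of LM2 from SN12C was -0.62 ± 0.09 (SE, 2 arrays each), or 1.54-fold lower, with a limma adjusted p of 0.252, the lowest of the set.

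IRF1, the transcription factor induced through the GAS by interferon gamma, gave 8.75 and 8.66 in SN12C, 8.47 in LM1 and 8.11 and 8.26 in LM2. It had the same order of lines as IFIH1, without overlap of the LM2 and SN12C arrays. Its LM2 difference was -0.52 ± 0.10 (SE), 1.43-fold lower, with a limma adjusted p of 0.289. IRF9, the DNA-binding part of ISGF3, gave 9.31 and 9.38 in SN12C, 8.95 in LM1 and 9.61 and 9.50 in LM2. It was lowest on the LM1 array, and the difference from SN12C was 0.21 in LM2 and -0.40 in LM1. A probe set shared with the gene RNF31, which was not used, was highest on the LM1 array instead. Its difference from SN12C was 0.40 in LM2 and 0.69 in LM1. IRF7, which drives interferon production, and TRIM21, a cytosolic antibody receptor, differed from SN12C by -0.12 and 0.12 in LM2.

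Among effectors that act on viral RNA or nucleotides, 3 of 9 tested were higher in LM2 and 6 lower, with a median of -0.01. ISG20, an exonuclease that degrades RNA, gave 7.09 and 7.36 in SN12C, 6.58 in LM1 and 6.44 and 6.63 in LM2. Both metastatic lines were below both SN12C arrays. LM2 differed from SN12C by -0.69 ± 0.15 (SE), 1.62-fold lower, with a limma adjusted p of 0.318.

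The IFIT proteins bind the ends of viral RNA. In LM2 minus SN12C, IFIT1, IFIT2 and IFIT3 differed by -0.02, -0.01 and -0.00 log2 units, and IFIT5 by 0.24. IFIT2 had 9.15 on both SN12C arrays, and its LM2 values of 9.01 and 9.26 lay on either side. A second IFIT2 probe set gave 7.53 and 8.08 in SN12C, 6.97 in LM1 and 8.09 and 8.38 in LM2, higher in LM2 by 0.43 without overlap and at -0.84 in LM1. IFIT1 was at -0.35 without SN12C replicate 1 and 0.32 without SN12C replicate 2. The oligoadenylate synthetases make the second messenger that activates RNase L. OAS2 differed by 0.02 and OAS3 by -0.07 in LM2, and OASL, which has no synthetase activity, by -0.17. OAS1 passed the filter value on only 1 array, SN12C replicate 1 at 6.43, and was not tested.

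SAMHD1, which breaks down deoxynucleotides and so limits retroviral DNA synthesis, gave 9.37 and 9.53 in SN12C, 11.08 in LM1 and 9.84 and 9.88 in LM2. The LM1 array was 1.19 log2 units above the highest of the other 4. LM2 differed from SN12C by 0.41 ± 0.10 (SE), 1.33-fold higher, with a limma adjusted p of 0.343.

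Effectors of viral entry, release and capsid transport held both the largest lower and the largest higher differences, and their median was 0.11. BST2, or tetherin, the membrane protein that holds budding virions at the cell surface, gave 8.92 and 9.55 in SN12C, 8.29 in LM1 and 7.17 and 8.48 in LM2. Both LM2 values were below both SN12C values, but the LM2 replicates were 1.31 apart, and only 2 of all tested genes had LM2 replicates further apart. The LM2 difference was -1.41 ± 0.57 (SE), 2.65-fold lower, with a limma adjusted p of 0.498. It was -0.75 without LM2 replicate 1 and -2.06 without LM2 replicate 2.

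The guanylate-binding proteins are interferon-induced GTPases that attack pathogen membranes. GBP1 gave 7.49 and 7.32 in SN12C, 7.43 in LM1 and 6.59 and 6.90 in LM2. LM2 was apart from the other 3 arrays, which lay close together. The LM2 difference was -0.66 ± 0.16 (SE), 1.58-fold lower, with a limma adjusted p of 0.345. GBP2 gave 7.19 and 6.63 in SN12C, 6.56 in LM1 and 6.35 and 6.47 in LM2, a difference of -0.50, just under 0.5 in size before rounding.

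The IFITM proteins block fusion of viral envelopes with the cell membrane. IFITM2 gave 12.94 and 13.54 in SN12C, 12.78 in LM1 and 13.54 and 13.52 in LM2, and IFITM3 gave 13.26 and 13.79 in SN12C, 13.19 in LM1 and 13.76 and 13.70 in LM2. In both genes LM2 was close to SN12C replicate 2, and LM1 was the lowest array. Both were read by probe sets of the kind that can also bind related transcripts, as were SAMHD1 and SP110. The signals of IFITM2 and IFITM3 may therefore not be separate. A further 7 tested genes, among them ISG15, were read by another kind that can bind more than 1 transcript. With both kinds left out, ISG15 was not tested. IFITM1 had the same value, 6.12, on all 5 arrays, as did 61 tested genes in all, and its other probe set is shared with IFITM2.

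MX2, a dynamin-like GTPase that acts against the capsid of HIV-1, gave 8.65 and 9.33 in SN12C, 9.73 in LM1 and 9.90 and 9.76 in LM2. Its paralog MX1 gave 7.49 and 7.60 in SN12C, 8.44 in LM1 and 8.07 and 8.20 in LM2. In both genes all 3 metastatic arrays were above both parental arrays. The LM2 difference of MX2 was 0.84 ± 0.28 (SE), 1.79-fold higher, with a limma adjusted p of 0.432, and it was 0.50 without SN12C replicate 1 and 1.18 without SN12C replicate 2. The LM2 difference of MX1 was 0.59 ± 0.10 (SE), 1.51-fold higher, with a limma adjusted p of 0.270.

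The ISG15 system attaches the ubiquitin-like protein ISG15 to other proteins. ISG15 gave 10.10 and 10.51 in SN12C, 10.27 in LM1 and 9.75 and 9.79 in LM2. LM2 was below the other 3 arrays and LM1 lay within the SN12C pair. The LM2 difference was -0.53 ± 0.18 (SE), 1.44-fold lower, with a limma adjusted p of 0.434, and it was -0.32 without SN12C replicate 2 and -0.74 without SN12C replicate 1. UBE2L6, the conjugating enzyme for ISG15, gave 10.78 and 10.91 in SN12C, 10.59 in LM1 and 10.55 and 10.65 in LM2. All 3 metastatic arrays of UBE2L6 were below the SN12C pair, with a difference of -0.25 in LM2. USP18, which removes ISG15 and restrains the receptor subunit IFNAR2, differed by 0.06.

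PARP9 and DTX3L form a complex that joins ADP-ribosylation to ubiquitin ligation, and they are the gene pair with the shared promoter match shown above. DTX3L gave 9.35 and 10.07 in SN12C, 10.91 in LM1 and 10.07 in both LM2 arrays, and the LM1 value was 0.84 above the highest of the other 4. PARP9 gave 8.16 and 8.84 in SN12C, 8.05 in LM1 and 8.39 in both LM2 arrays, with LM1 the lowest array. The value of DTX3L was the same on SN12C replicate 2 and both LM2 arrays. PARP14, a mono-ADP-ribosyltransferase, differed by 0.17 in LM2 and 0.56 in LM1.

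The remaining tested genes, IFI6, IFI35 and SP110, were all lower in LM2, with a median of -0.33. IFI6, a small membrane protein with antiviral and anti-apoptotic roles, gave 8.82 and 7.88 in SN12C, 7.57 in LM1 and 7.42 and 7.33 in LM2. All 3 metastatic arrays were below the SN12C pair, whose own values were 0.94 apart. The LM2 difference was -0.97 ± 0.37 (SE), 1.95-fold lower, with a limma adjusted p of 0.480. It was -0.50 without SN12C replicate 1 and -1.44 without SN12C replicate 2.

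**Figure D3:**
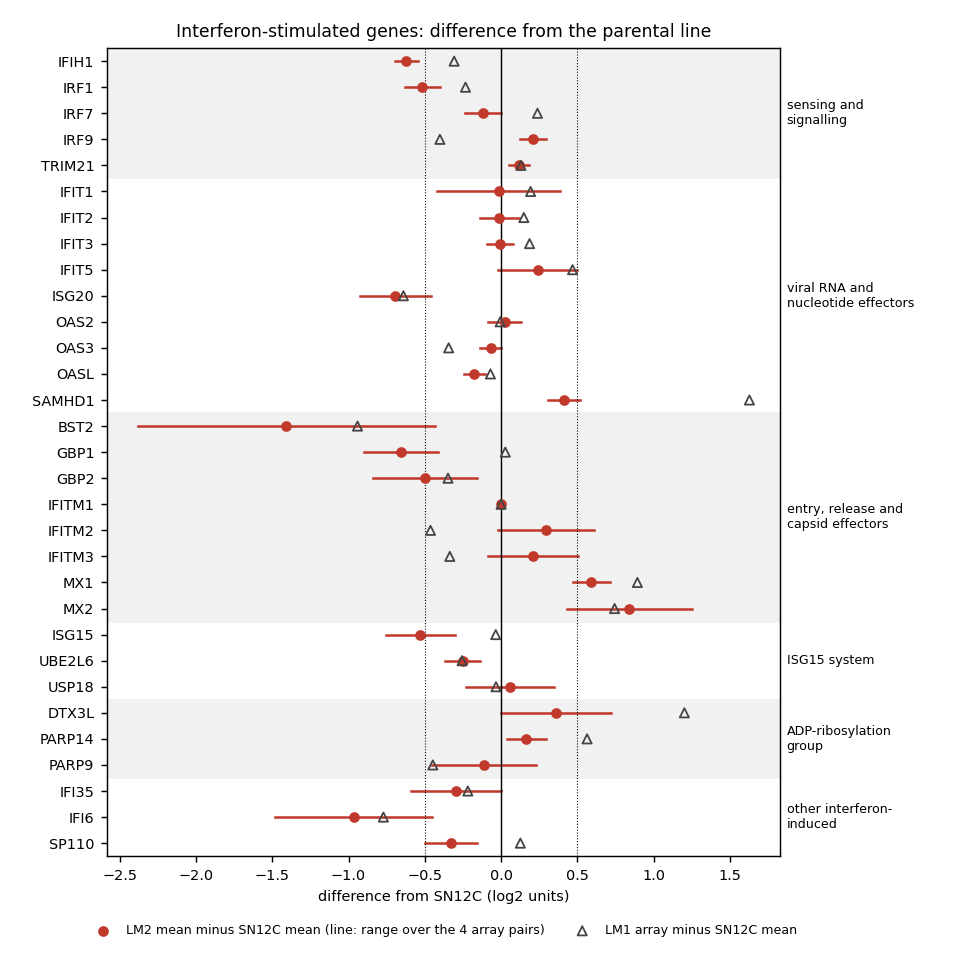
Difference from the SN12C mean in log2 units (x axis) for the 31 tested genes, with LM2 as red circles, the range over its 4 array pairs as lines and the single LM1 array as triangles; dotted lines mark 0.5 in each direction. The LM2 ranges of BST2, IFI6, ISG20, GBP1, IFIH1, ISG15 and IRF1 lie wholly below 0, and those of MX1 and MX2 wholly above.

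IFIT1, IFIT3 and ISG15 reached the filter value on all 5 arrays. Some other genes that are among the most responsive to interferon in many cells did not reach it in these lines. RSAD2, or viperin, lay between 5.42 and 5.95, and XAF1, an antagonist of apoptosis inhibitors, between 5.38 and 5.54. IFI27 lay between 4.93 and 5.37, IFI44L between 4.04 and 4.32 and TRIM22, a ubiquitin ligase, between 4.31 and 4.80. IFI44 gave 5.72 and 5.64 in SN12C, 4.92 in LM1 and 4.86 and 5.16 in LM2. These 6 genes were below the filter value on every array, and no difference is drawn from them.

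LM1 also differed from SN12C in both directions, on 1 array, and its test takes its spread from the other lines and shares the SN12C arrays with the comparison above. None of the 31 genes, and 0.0% of all genes, passed a limma adjusted p of 0.05. At an unadjusted p under 0.05, limma called 4 genes higher, against 17.2% of all genes, and 3 lower, against 4.96%. By size, 5 were at least 0.5 higher (SAMHD1, DTX3L, MX1, MX2 and PARP14), against 23.1% of all genes, and 3 at least 0.5 lower (BST2, IFI6 and ISG20), against 6.37%. Of the 31 genes 13 were higher and 17 lower, with a median of -0.03 against 0.09 for all genes, and 17 were higher and 14 lower once each array was centred on its median.

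The values of LM1 stand beside those of LM2 as follows. SAMHD1 was 1.63 log2 units above SN12C in LM1 and 0.41 in LM2, and DTX3L 1.20 and 0.36, the latter 0.00 without SN12C replicate 1 and 0.72 without SN12C replicate 2. SAMHD1 had the lowest limma adjusted p of the set in LM1, 0.0964. MX1 was 0.89 above SN12C in LM1 and 0.59 in LM2, and MX2 0.74 and 0.84. At least 0.5 lower in both were 3 genes, BST2, IFI6 and ISG20. BST2 was at -0.94 in LM1 and -1.41 in LM2, IFI6 at -0.77 and -0.97, and ISG20 at -0.64 and -0.69. GBP1 and ISG15, in contrast, were at 0.03 and -0.04 in LM1, against -0.66 and -0.53 in LM2. Only SAMHD1 and DTX3L (6.45%) had an LM1 value at least 0.5 outside the other 4 arrays, against 10.8% of all genes.

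LM2 was also set against LM1, sharing the arrays of both lines with the comparisons above. None of the 31 genes, and 0.0% of all genes, passed a limma adjusted p of 0.05. At an unadjusted p under 0.05, limma called IRF9 higher in LM2, by 0.61, against 4.23% of all genes, and GBP1 and SAMHD1 lower, against 12.8%. The probe set shared by IRF9 and RNF31 went the other way, at -0.28. So did the other GBP1 probe sets above the filter value, at 0.64 and 0.25 where the one used gave -0.68. Those of SAMHD1 were split, at 3.99, 0.37, -0.29 and -1.17. By size, IFITM2, IFITM3 and IRF9 were at least 0.5 higher, against 5.8% of all genes, and SAMHD1, DTX3L and GBP1 at least 0.5 lower, against 14.5%. The median of the set was -0.16 log2 units, against -0.07 for all genes, and it was -0.09 without LM2 replicate 1.

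Where a gene had more than 1 probe set above the filter value, the probe sets could be compared. The set had 19 such second readings in 12 genes. SAMHD1, SP110 and GBP1 gave more than 1 each, so the readings are not independent. In LM2 minus SN12C, 17 of the 19 had the sign of the probe set used, against 70.3% of 12715 such pairs over all genes. In LM1 minus SN12C only 10 of the 19 did, against 53.9%, and in LM2 minus LM1 9 of the 19, against 46.6%. The lower values of LM2 held in each second reading: GBP1 gave -0.47 and -0.68 beside -0.66, IRF1 -0.40 beside -0.52 and ISG20 -0.76 beside -0.69. On the higher side, SAMHD1 gave 1.74, 0.65, 0.53 and 0.50 beside 0.41. Whether SAMHD1 counts as at least 0.5 higher in LM2 therefore depends on the probe set read. BST2, IFI6, ISG15, IFIH1, MX1 and MX2 had no second reading.

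The LM1 values of several genes depended on the probe set. A second probe set of SAMHD1 gave 5.30 and 7.77 in SN12C, 4.28 in LM1 and 8.39 and 8.15 in LM2, so that LM1 was lowest at -2.25 where the probe set used gave 1.63. The other 3 readings of SAMHD1 gave 1.67, 0.82 and 0.28 in LM1. For SP110, a nuclear body protein, 1 probe set gave 8.39 and 9.13 in SN12C, 6.49 in LM1 and 8.40 and 8.39 in LM2, a difference of -2.27 in LM1 where the one used gave 0.13. GBP1 gave -1.11 and -0.93 in LM1 by its other probe sets and 0.03 by the one used. PARP9 gave 0.12 in LM1 by its other probe set and -0.45 by the one used. The part of the 3' to 5' signal excess of the LM1 array in these values was not tested.

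**Figure D4:**
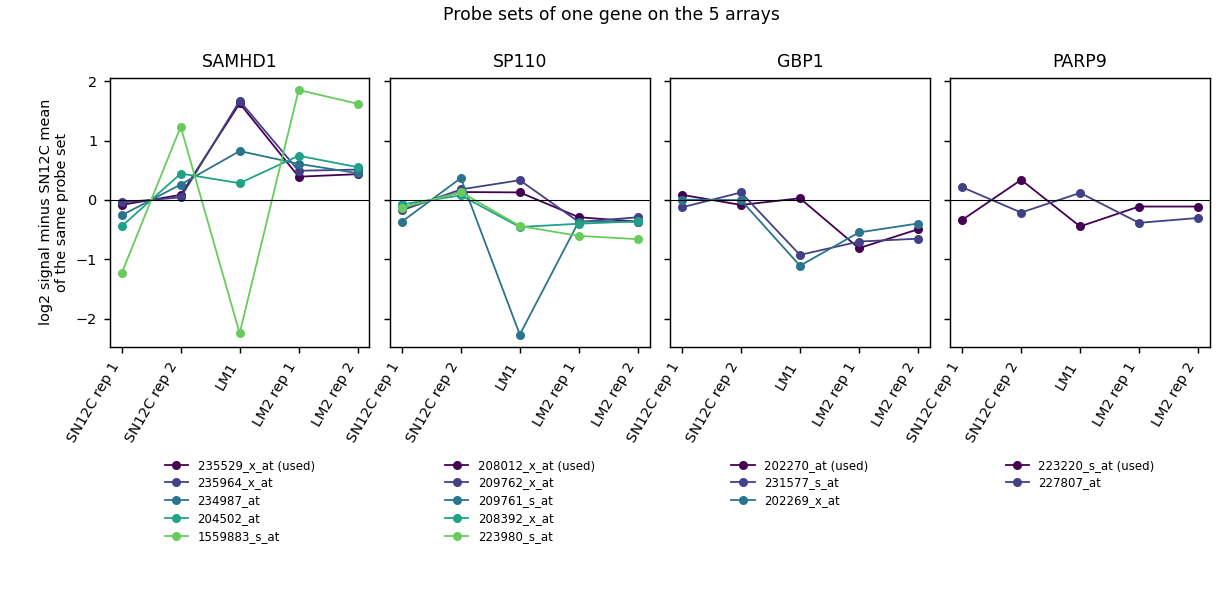
Log2 signal minus the SN12C mean of the same probe set (y axis) on the 5 arrays (x axis) for every probe set of SAMHD1, SP110, GBP1 and PARP9 that reached the filter value on at least 2 arrays; lines join 1 probe set and imply no order of arrays. The probe sets spread most at LM1, from -2.25 to 1.67 in SAMHD1 and from -2.27 to 0.33 in SP110, and lie closer together in LM2, apart from the -2.25 probe set of SAMHD1.

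MX1 and MX2 are neighbours on chromosome 21, with 0 protein-coding genes between them, and the interferon receptor genes IFNAR2, IL10RB, IFNAR1 and IFNGR2 follow each other on the same chromosome. This grouping was made after the values were seen. All 6 genes were higher in LM2 without overlap of the arrays, by 0.35 to 0.84 log2 units, and in LM1 by 0.48 to 1.29. Over all 166 tested genes of chromosome 21 the median LM2 difference was 0.34, and 54.8% had both LM2 arrays above both SN12C arrays, against 25.3% of all genes. In LM1, on 1 array, the chromosome's median was 0.37, against 0.09 for all tested genes. The difference of MX1 was exceeded by 56 chromosome 21 genes and that of MX2 by 27. Without MX1 and MX2, the other 29 genes of the set had a median of -0.07, with 18 lower and 10 higher. The part of the chromosome-wide shift in the MX1 and MX2 values was not tested.

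The wider pathway showed no common direction. Of 96 further pathway genes 68 were tested, with 32 higher and 36 lower in LM2, and none passed a limma adjusted p of 0.05, while 4 higher and 4 lower passed an unadjusted p of 0.05, 5.88% in each direction against 6.96% and 4.6% of all genes. By size, 8 of the 68 were at least 0.5 higher and 8 at least 0.5 lower, against 10.1% and 4.6% of all genes. Of 14 interferon ligands only IFNL1 was tested, at -0.08, and IFNB1 lay between 5.42 and 5.76, below the filter value.

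Of 9 tested receptor and kinase genes 6 were higher and 3 lower, with a median of 0.04. IFNAR1 and IFNAR2, the subunits of the type I receptor, differed by 0.52 ± 0.22 (SE) and 0.35 ± 0.07 in LM2. IL10RB, a subunit of the type III receptor, differed by 0.77 ± 0.23 and IFNGR2, of the interferon gamma receptor, by 0.55 ± 0.20. Without SN12C replicate 1 the differences of IFNAR1, IL10RB and IFNGR2 were 0.24, 0.49 and 0.33, and without SN12C replicate 2 they were 0.79, 1.05 and 0.77. IFNAR2 was at 0.19 by probe sets less open to related transcripts, and also at 0.19 after quantile normalization was repeated. JAK1, the kinase shared by all 3 receptor types, gave 11.83 and 12.16 in SN12C, 11.62 in LM1 and 11.38 and 11.52 in LM2, lower in all 3 metastatic arrays than in SN12C, with a difference of -0.55 ± 0.16 in LM2 that was -0.28 with the mean of all its probe sets. TYK2 differed by 0.04.

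Of 16 tested sensors and adaptors 6 were higher and 10 lower. IFI16, a sensor of DNA, gave 10.23 and 10.07 in SN12C, 9.11 in LM1 and 9.15 and 8.67 in LM2. All 3 metastatic arrays were below the SN12C pair. For LM2 the difference was -1.24 ± 0.21 (SE), 2.36-fold lower, with a limma adjusted p of 0.285. IRF3 and MYD88 differed by 0.48 and 0.33, and by 0.25 and 0.04 without SN12C replicate 1. Of 11 tested negative regulators 3 were higher and 8 lower, and SOCS3, PTPN2 and PTPN1 differed by -0.54, -0.50 and -0.33. Without SN12C replicate 2, SOCS3 was at -0.13 and PTPN1 at -0.16, and without SN12C replicate 1 at -0.95 and -0.51.

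Of 31 further interferon-induced genes tested, 17 were higher and 14 lower, with a median of 0.02. SP100, a nuclear body protein, differed by -0.98 in LM2, PLSCR1, a phospholipid scramblase, by 0.83 and PSMB9, a subunit of the immunoproteasome, by 0.81. Each rested on the SN12C array used: without SN12C replicate 1 the differences were -0.51, 0.15 and 0.38, and without SN12C replicate 2 they were -1.46, 1.51 and 1.23.

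**Figure D5:**
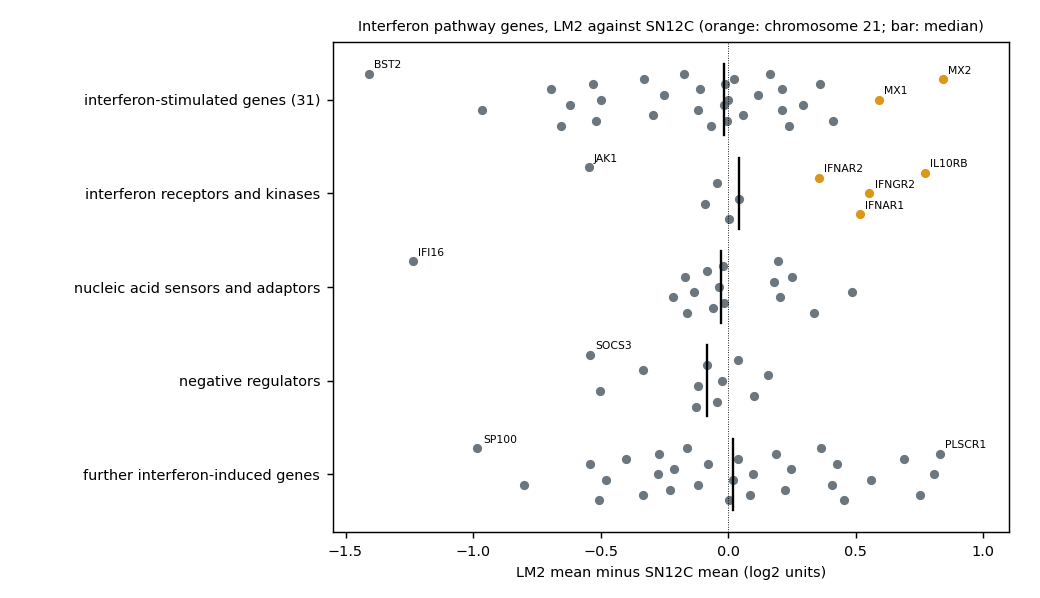
LM2 mean minus SN12C mean in log2 units (x axis) for the 31 tested interferon-stimulated genes and 4 lists of further pathway genes, 1 point per gene, with the list's median as a bar and genes on chromosome 21 in orange. The medians lie between -0.08 and 0.04, and all 6 orange points lie to the right of 0.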

How the data were processed

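The 5 arrays were deposited as log2 values per probe set; the submitters' processing notes name RMA and Partek, with versions not given in the sources used here. The table held 54675 probe sets, of which 62 are controls and stayed out. The platform's gene table pairs 41097 with a single gene and 1801 with several, and the latter were not used. Each gene was read by its probe set with the highest mean, and tested if 2 or more arrays were at 6.03, the 40th percentile over the whole table, or above. Lines were compared with limma 3.58.1 in R 4.3.3 (lmFit and eBayes on all 5 arrays, 2 residual degrees of freedom, Benjamini-Hochberg adjustment over 15024 genes), a script first tested on simulated data. P-values measure only the spread between these arrays, whose number limits the precision.

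Genes are named with values when they differed by at least 0.5 log2 units in LM2 minus SN12C, when LM1 lay at least 0.5 outside the other arrays, when they were among the 5 with the highest mean, or as a paralog of such a gene; in each pathway list, up to 3 with the largest difference and IFNAR1, IFNAR2, JAK1 and TYK2. Genes and lists were chosen with earlier results of these data known. The alternatives changed the filter, the probe set, the scaling, the variance moderation and the arrays used. Promoters were searched in Python 3.11.15.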

Additional observations from a re-analysis of the deposited data

How the results depend on the processing

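With 2 arrays a line, these data limit what can be called: under every alternative that kept both SN12C arrays, 0 of the interferon-stimulated genes passed a limma adjusted p of 0.05 in any comparison. Leaving out 1 array at a time gave 0 to 5 genes in each of the 3 comparisons. Without SN12C replicate 2, 5 genes passed in LM2 minus SN12C (DTX3L, IFI6, IFITM2, PARP9 and SAMHD1), along with 25.5% of all genes. The fits without an SN12C array take their spread from the LM2 pair alone. DTX3L and PARP9 had equal values in that pair, a spread of 0. Their LM2 minus SN12C differences were 0.72 and 0.23 without SN12C replicate 2, and 0.00 and -0.45 without SN12C replicate 1. Without SN12C replicate 1, 0 passed in LM2 minus SN12C and 5 in each comparison with LM1, beside 13.2% of all genes in LM1 minus SN12C and 8.47% in LM2 minus LM1. Without SN12C replicate 2, 5 passed in each of these as well, beside 32.1% and 8.47%. Replicate numbers were shared by SN12C and LM2, with a correlation of deviations of 0.092 over 2 pairs, so they were not treated as pairs. With the replicate block, 0 genes passed, the lowest limma adjusted p was 0.458 and the median was -0.02. The median LM2 minus SN12C difference was -0.14 to 0.00 with 1 array left out, -0.17 after quantile normalization was repeated and -0.17 without genes of equal replicate values, an alternative chosen after seeing the data. The median of LM1 minus SN12C was -0.12 with the mean of all probe sets and 0.02 with arrays centred on their median. That of LM2 minus LM1 was -0.065 without a filter and -0.045 with the mean of all probe sets. The cause of these shifts was not tested. The 9 genes at least 0.5 apart in LM2 minus SN12C, and IFI16, JAK1 and the 4 receptor genes of chromosome 21, kept their direction under each alternative in which they were tested.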
